A study of Mus musculus with 6 samples.

Results

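The actins and tropomyosins are the main proteins of the thin filament, and their mRNA was followed here in HL-1, a line of beating cardiomyocytes that was raised from mouse atrium, after exposure to hyaluronan of 2 sizes. All probes carrying the symbols Acta1, Acta2, Actb, Actc1, Actg1, Actg2, Tpm1, Tpm2, Tpm3 or Tpm4 were taken, whatever their values. This gave 22 of the 25697 probes on the array, for 9 of the 10 genes (of 16593 genes with a symbol), since no probe was found for Tpm4. The question of this part of the study was whether hyaluronan in the medium changes transcription in cardiomyocytes.

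The first group received oligomeric hyaluronan of 6 sugars (o-HA), the second received hyaluronan of 1000 kDa (n-HA), and the third was left untreated, with 2 Illumina MouseRef-8 arrays per group. All cells were grown in Claycomb medium, the norepinephrine-containing medium made for this line. The o-HA was given at a higher mass concentration than the n-HA, so each was set against untreated cells and their values are given side by side without a test between them. The line descends from a single atrial tumour lineage, and the labels do not say whether the arrays of a group came from separate cultures. The p-values therefore measure the spread between these arrays, which may be technical. On the chip, n-HA arrays held places A and B, o-HA arrays places C and D and untreated arrays places F and G, so place and group cannot be told apart.

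Actin polymerises into filaments in every cell. The mammalian isoforms fall into striated muscle actins (Actc1 of the heart, Acta1 of skeletal muscle and of the fetal heart), smooth muscle actins (Acta2 of vessels, Actg2 of the gut) and the cytoplasmic actins Actb and Actg1. Tropomyosins are coiled coils that lie along the filament, where in muscle they carry the calcium signal from troponin to the actin surface and elsewhere decide which proteins bind. Tpm1 gives the main cardiac tropomyosin, and each tropomyosin gene gives many splice forms. Several actin genes are transcribed by serum response factor (SRF), which binds the CArG box together with myocardin-family partners, some of which are held back by unpolymerised actin.

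The promoters are shown because that motif stands close to the start of striated muscle and of cytoplasmic actin genes. RefSeq windows (GRCm38.p6) of 300 bases, 250 before the start of the gene and 50 after it, were at hand for 8 of the 10 genes, in 9 windows. The CArG box was found in the windows of 3 genes: at base -73 from the start of Acta1 (chr8:123894814-123894873), at -47 of Actc1 (chr2:114052888-114052947) and at -90 of Actg1 (chr11:120348551-120348610), all on the minus strand. Both strands were searched, and the motif is its own reverse complement. In the lines below the capitals mark the CArG box.
Acta1: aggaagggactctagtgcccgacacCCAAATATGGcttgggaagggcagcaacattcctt
Actc1: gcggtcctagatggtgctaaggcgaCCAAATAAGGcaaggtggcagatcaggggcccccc
Actg1: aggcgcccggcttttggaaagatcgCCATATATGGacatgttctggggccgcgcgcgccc
Of all 32851 windows, 535 (1.63%) held the motif. The windows of Acta2, Tpm1, Tpm2, Tpm3 and Tpm4 did not hold these letters, which says nothing about the binding of SRF there.

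Of the 22 probes, 13 were detected (detection p-value under 0.05 against negative control beads) on at least 2 of the 6 arrays and were tested, 11 of 14 actin probes and 2 of 8 tropomyosin probes. They stood for 7 genes, and 10 of them were detected on all 6 arrays. The other 9 probes were detected on 0 arrays. These were Actb ILMN_2588055 and ILMN_2846865, Actg2 ILMN_2839313, Tpm2 ILMN_2482209 and ILMN_2487170 and the 4 Tpm3 probes ILMN_2426965, ILMN_2426966, ILMN_2426967 and ILMN_2444316. Their bead intensities lay between 49.99 and 70.87, and their lowest detection p-value was 0.0677. Actg2 and Tpm3 thus have no measured level here, and for Actb and Tpm2 silent probes stood beside detected probes of the same gene. The part of the transcript that each probe reads was not examined, so whether a probe also takes up a related actin or misses a splice form was not tested. A fold change therefore always sets 1 probe on some arrays against the same probe on others.

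The n-HA arrays detected fewest probes. The o-HA arrays detected 5504 and 5443 probes, the n-HA arrays 4767 and 4546 and the untreated arrays 5763 and 5449. n-HA replicate 1 correlated with the others at 0.817 to 0.873 over all tested probes, while the other 5 arrays correlated with each other at 0.962 or more. The n-HA calls are therefore also given without each n-HA array. Markers of cardiomyocytes were present (8 of 10 detected on all 6 arrays, Myl7 on 3 and Tnni3 on 1). Those of skeletal muscle and of fibroblasts were detected on all arrays for 0 of 8 each. Endothelium had 0 of 5 such markers and leukocytes 1 of 4 (Cd3e). On fewer arrays, Tek of endothelium was detected on 5. Kdr of endothelium, Col3a1 of fibroblasts and Myod1 of skeletal muscle were detected on 1 each. Before normalization, the summed intensity of the cardiomyocyte markers ranged over 7846 to 9202 on the o-HA arrays and 4498 to 12220 on the n-HA arrays. On the untreated arrays it ranged over 9618 to 13270, so the sum was wholly lower with o-HA. Bright markers weigh most in such a sum, and the share of each marker was not examined. Tnnc1, which is among them, had normalized log2 intensities of 10.09 and 10.13 in o-HA cells, against 11.26 and 11.40 in untreated cells. The part of this lower sum in the o-HA values below was not tested. In a bulk extract, fewer cells of a type and less RNA per cell cannot be told apart.

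Actc1, the actin of the cardiac sarcomere, was read by 2 probes that were detected on all 6 arrays. Probe ILMN_2598916 had normalized log2 intensities of 6.68 and 6.91 in o-HA cells and 8.95 and 7.32 in n-HA cells, against 7.02 and 6.88 in untreated cells. Both n-HA arrays were above both untreated arrays, n-HA replicate 1 far more than replicate 2, and the o-HA arrays overlapped the untreated arrays. The log2 fold change was -0.15 (SE 0.51) for o-HA and 1.19 (SE 0.51, limma adjusted p = 0.238) for n-HA, 2 arrays against 2. The n-HA value was 0.37 without n-HA replicate 1, 2.01 without n-HA replicate 2 (limma adjusted p = 2.53e-06) and 0.29 without normalization between arrays. The second probe, ILMN_2767216, had 5.48 and 5.41 in o-HA cells and 5.92 and 5.66 in n-HA cells, against 5.56 and 5.95 in untreated cells. Here the n-HA arrays overlapped the untreated arrays, with a log2 fold change of 0.04 (95% interval -0.54 to 0.62), which became -0.09 without n-HA replicate 1 and -0.64 when the arrays were not normalized to each other. In o-HA cells it lay below both untreated arrays (log2 fold change -0.31, SE 0.24).

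Acta1, the skeletal muscle actin that is also made in the fetal heart, was close to the limit of detection. Its probe ILMN_2738825 had log2 intensities of 4.69 and 4.91 in o-HA cells and 5.70 and 4.62 in n-HA cells, against 4.73 and 4.63 in untreated cells. It was detected on 1 array of each group only, o-HA replicate 2, n-HA replicate 1 and untreated replicate 1. With o-HA the log2 fold change was 0.12 (SE 0.37) and with n-HA 0.48 (SE 0.37, limma adjusted p = 0.456), and both groups overlapped the untreated arrays. Without n-HA replicate 1 the n-HA value was -0.063, and without n-HA replicate 2 it was 1.10 (limma adjusted p = 0.000622).

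**Figure D1:**
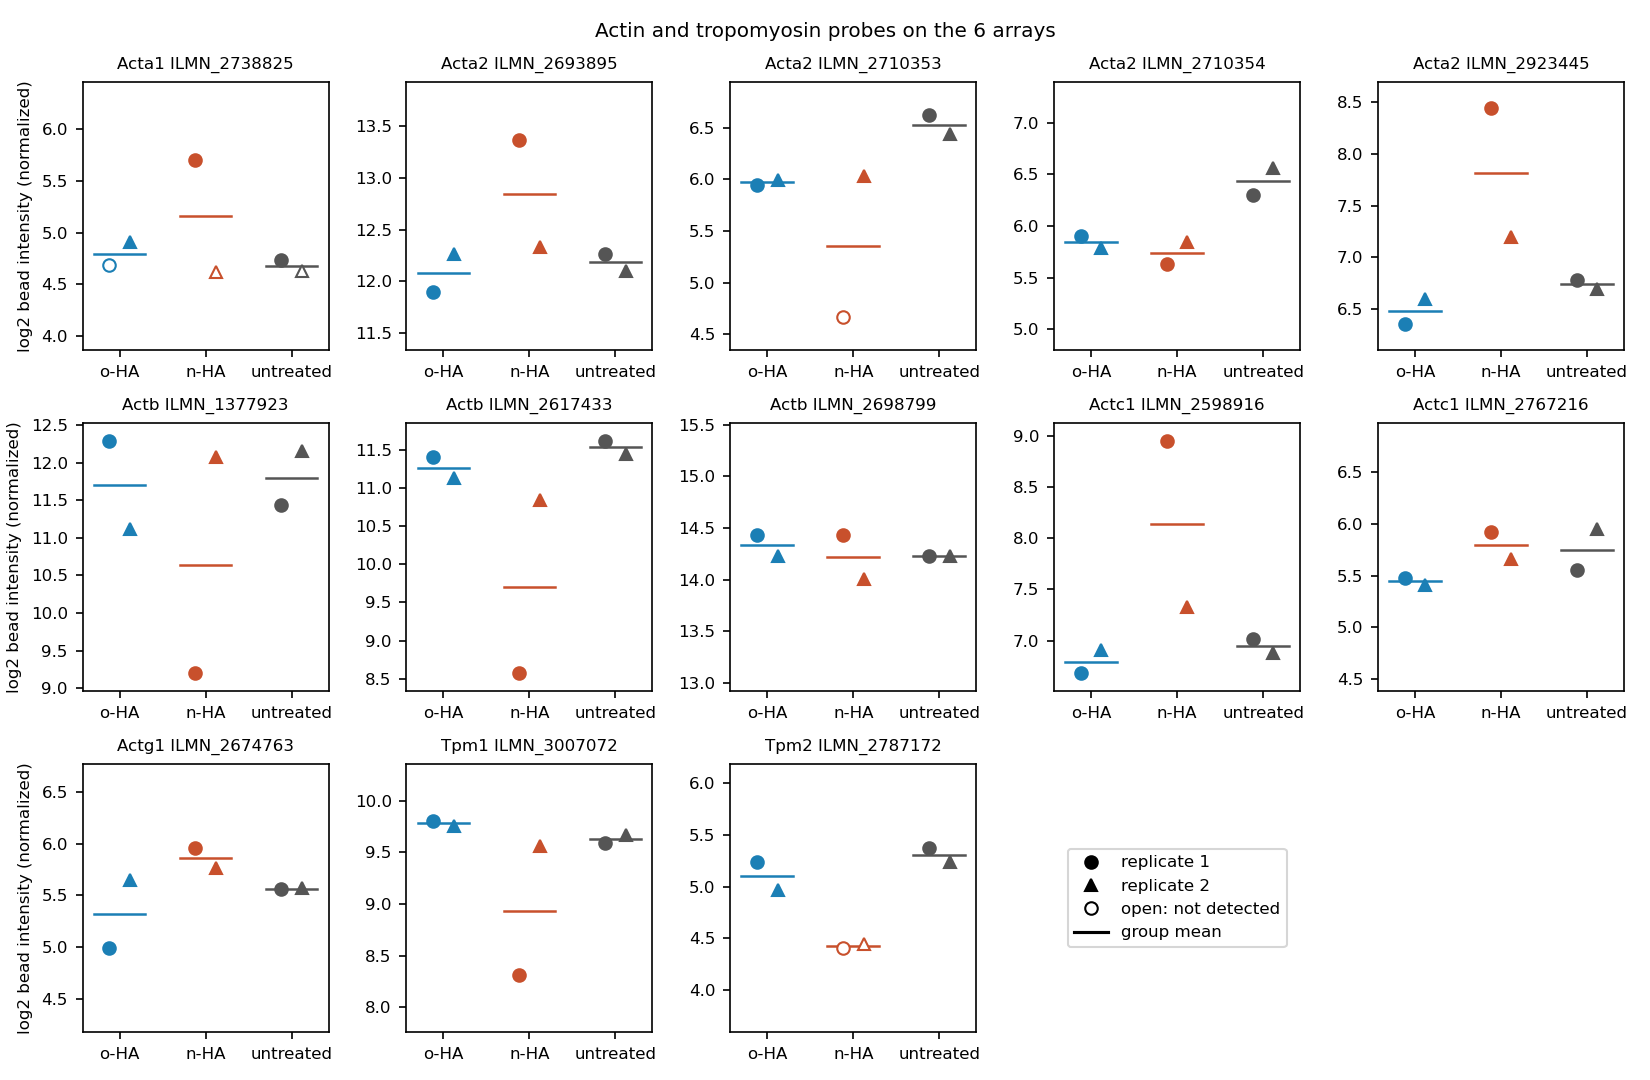
Normalized log2 bead intensity of the 13 tested probes, 1 panel per probe with its own y axis, for the o-HA, n-HA and untreated arrays; circles are replicate 1, triangles replicate 2, open marks were not detected and lines are means of 2 arrays. The untreated pair mostly lies close together, whereas the n-HA pair of Actb ILMN_1377923 reads 9.20 and 12.07.

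Acta2, the actin of vascular smooth muscle, had the most tested probes, 4, and these disagreed with each other. Probe ILMN_2693895 had log2 intensities of 11.90 and 12.27 in o-HA cells and 13.36 and 12.33 in n-HA cells, against 12.27 and 12.10 in untreated cells. Probe ILMN_2923445 had 6.36 and 6.59 in o-HA cells and 8.44 and 7.19 in n-HA cells, against 6.78 and 6.70 in untreated cells. For both of these probes the n-HA arrays were above the untreated arrays, with log2 fold changes of 0.66 (SE 0.37, limma adjusted p = 0.320) and 1.08 (SE 0.41, limma adjusted p = 0.212). Without n-HA replicate 1 these were 0.15 and 0.45, and without normalization between arrays 0.0096 and 0.18.

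The remaining Acta2 probes went the other way. Probe ILMN_2710353 had log2 intensities of 5.95 and 5.997 in o-HA cells and 4.67 (not detected) and 6.04 in n-HA cells, against 6.62 and 6.44 in untreated cells. Probe ILMN_2710354 had 5.90 and 5.79 in o-HA cells and 5.63 and 5.84 in n-HA cells, against 6.30 and 6.56 in untreated cells. All 4 treated arrays were below both untreated arrays for each of these probes. The log2 fold change of ILMN_2710353 was -0.56 (SE 0.44) for o-HA and -1.18 (SE 0.44, limma adjusted p = 0.205) for n-HA. For ILMN_2710354 it was -0.59 (SE 0.22) for o-HA, where the limma adjusted p was 1, and -0.69 (SE 0.22, limma adjusted p = 0.179) for n-HA. Of the 4, this last probe had the smallest difference between the n-HA arrays, 0.21. Its arrays differed by 0.11 in o-HA cells, where ILMN_2710353 differed less. In untreated cells they differed by 0.26, the most among the 4.

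The spread among the Acta2 probes depended on the array. Each probe was set against its own untreated mean, and the highest minus the lowest of the 4 differences came to 0.29 and 0.72 for o-HA and to 3.56 and 1.04 for n-HA replicates 1 and 2. Among 762 genes with at least 2 tested probes the median of this spread was 0.28 on both o-HA arrays, 0.98 on n-HA replicate 1 and 0.45 on n-HA replicate 2. The spread of Acta2 was larger than that of 52.6% and 92.6% of these genes on o-HA replicates 1 and 2, and of 95.8% and 86.0% on n-HA replicates 1 and 2. Genes with more probes have more room for a spread, so these shares are a description.

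Other smooth muscle genes were partly present in these cells. Of 8 markers, 4 (Tagln, Smtn, Myocd and Mylk) were detected on all 6 arrays, Lmod1 on 3, and Myh11, Cnn1 and Synpo2 on 0. Of these, Myocd is also a gene of cardiac muscle. Before normalization, the summed intensity of the 8 markers ranged over 1239 to 1480 on the o-HA arrays and 858.3 to 1120 on the n-HA arrays. On the untreated arrays it ranged over 1289 to 1827. The n-HA arrays were also the dimmest over all probes, at means of 110.1 and 93.3. The part of smooth muscle cells in the Acta2 signal was not tested beyond these values.

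**Figure D2:**
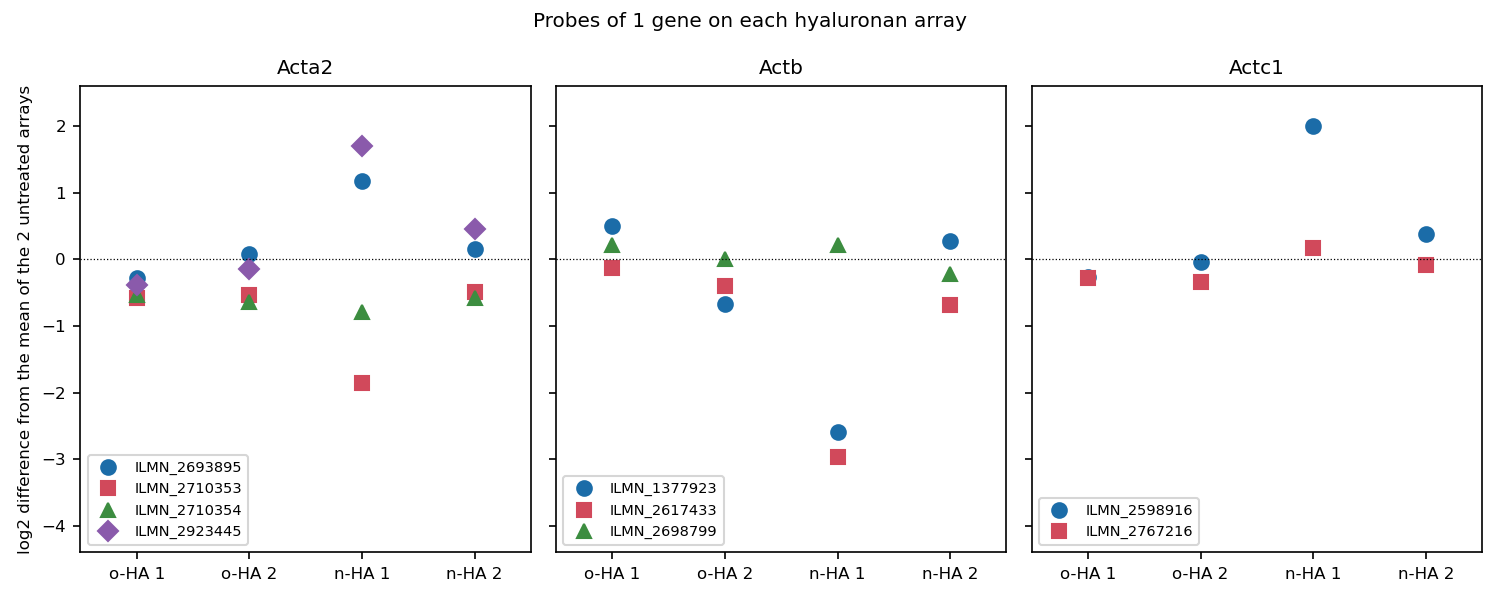
Log2 difference of each o-HA and n-HA array from the mean of the 2 untreated arrays, for the probes of Acta2, Actb and Actc1, with 1 marker shape per probe. On n-HA replicate 1 the probes of Acta2 lie on both sides of 0, from -1.86 to 1.70, and so do those of Actb, from -2.96 to 0.21. Both Actc1 probes lie above 0 there, at 2.01 and 0.17.

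Actb, the cytoplasmic beta-actin that is widely used as a reference for the amount of RNA, had 3 tested probes. Probe ILMN_2698799 had bead intensities of 24670 and 20540 in o-HA cells and 18270 and 12350 in n-HA cells, against 22510 and 19970 in untreated cells. It ranked 3, 6, 3, 8, 6 and 6 from the top on o-HA, n-HA and untreated replicates 1 and 2, and quantile normalization gives such a probe a value fixed by its rank. Its log2 fold changes were 0.11 (SE 0.24) for o-HA and -0.01 (SE 0.24) for n-HA, the second being 0.12 with the authors' normalized values, -0.23 without n-HA replicate 1 and 0.22 without n-HA replicate 2. The intervals, -0.48 to 0.69 and -0.59 to 0.58, leave room for changes of either sign.

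The second Actb probe, ILMN_2617433, had bead intensities of 2894 and 2619 in o-HA cells and 334.1 and 960.2 in n-HA cells, against 4109 and 2880 in untreated cells. On the normalized log2 scale these were 11.40 and 11.13 in o-HA cells and 8.57 and 10.85 in n-HA cells, against 11.62 and 11.44 in untreated cells. Both n-HA arrays were below every other array, and the o-HA arrays were below the untreated arrays by a smaller margin. The log2 fold change was -0.26 (SE 0.69) for o-HA and -1.82 (SE 0.69, limma adjusted p = 0.207) for n-HA. Without n-HA replicate 1 the n-HA value was -0.67 (SE 0.22) and passed the threshold of 0.05, with a limma adjusted p of 0.0490.

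The third Actb probe, ILMN_1377923, differed widely between the 2 arrays of each group. Its bead intensities were 5471 and 2613 in o-HA cells and 509.6 and 2539 in n-HA cells, against 3625 and 4875 in untreated cells. The gap between the 2 arrays of a group on the normalized log2 scale was 1.18 in o-HA cells and 2.87 in n-HA cells, against 0.72 in untreated cells. These gaps exceeded those of 99.98%, 99.66% and 98.98% of the 6194 tested probes in the o-HA, n-HA and untreated groups. The median gap over all tested probes was 0.18 in o-HA cells and 0.51 in n-HA cells, against 0.18 in untreated cells. The standard error over its 59 to 83 beads was only 3.01 to 4.26% of the intensity, so the gaps were larger than the error over beads. The fold changes were accordingly wide, at -0.09 (95% interval -2.35 to 2.18) for o-HA and -1.16 (-3.42 to 1.11) for n-HA. The o-HA value was 0.52 without o-HA replicate 2, and the n-HA value was 0.28 without n-HA replicate 1 and -2.58 without n-HA replicate 2 (limma adjusted p = 3.05e-05).

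**Figure D3:**
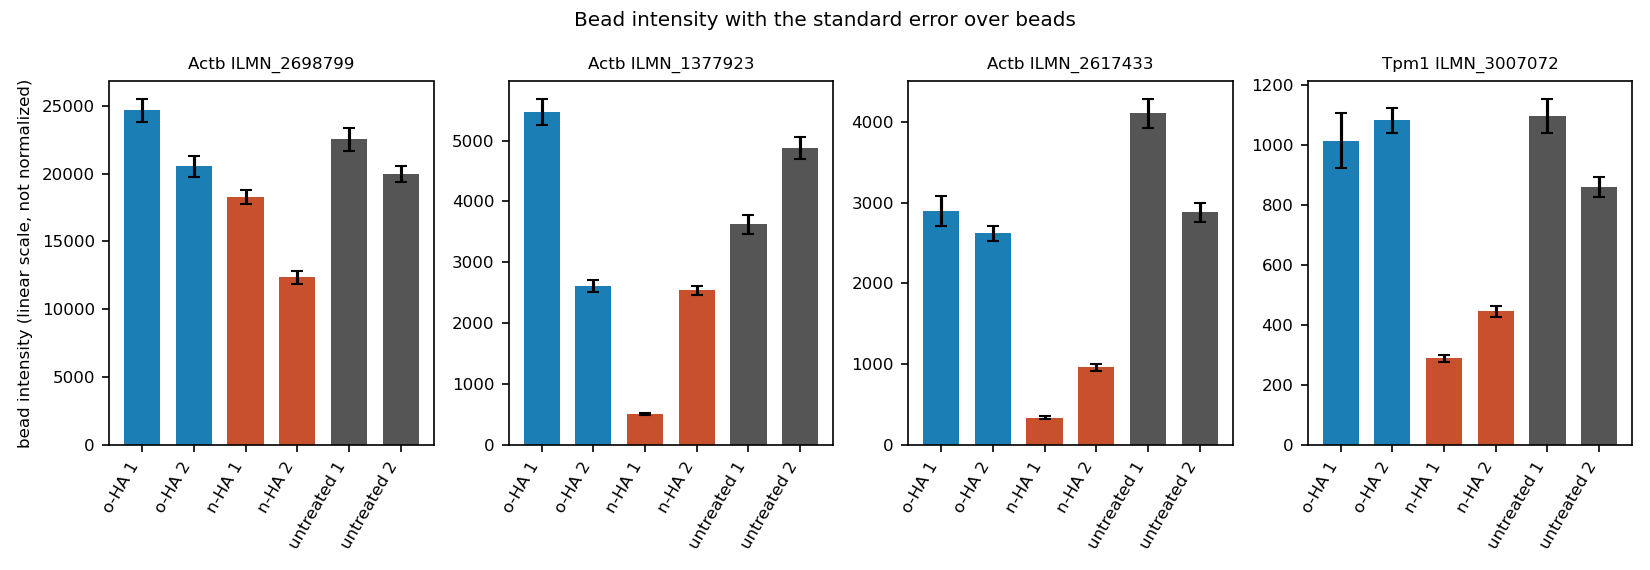
Bead intensity before normalization (linear scale from 0) of the 3 tested Actb probes and of Tpm1 on the o-HA, n-HA and untreated arrays; error bars are standard errors over beads. For Actb ILMN_1377923 the o-HA arrays read 5471 and 2613, a gap far larger than the bars.

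**Figure D4:**
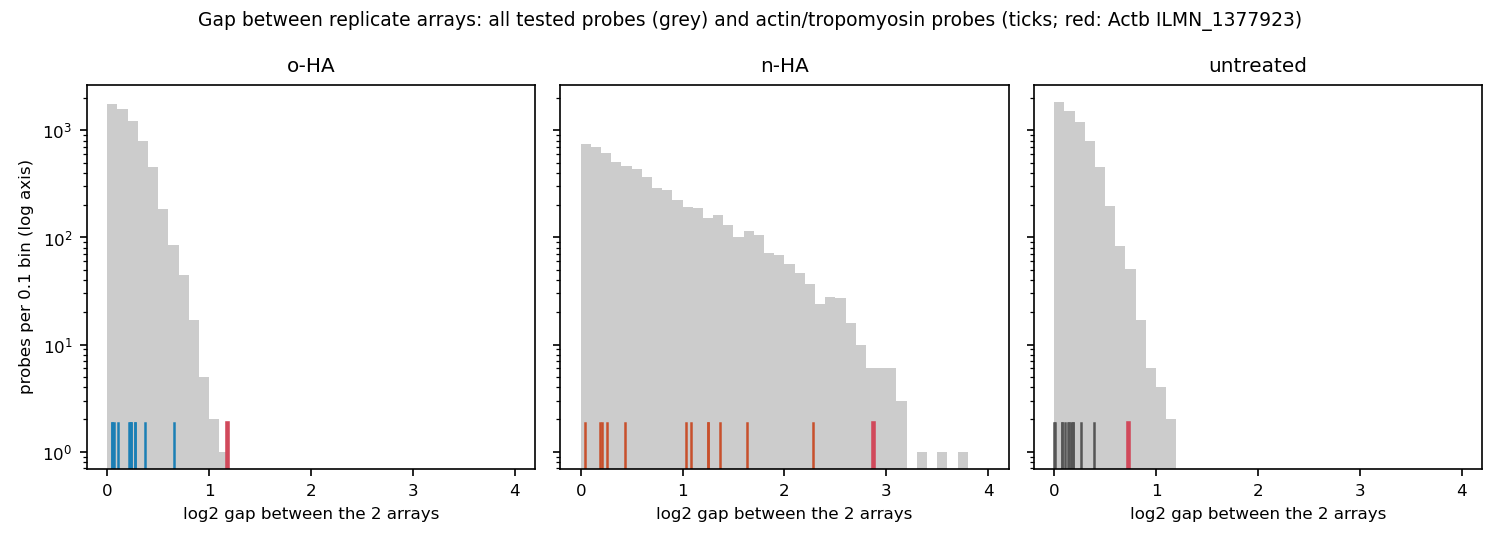
Absolute log2 gap between the 2 arrays of a group for all 6194 tested probes (grey histogram, log y axis) and for the 13 actin and tropomyosin probes (ticks), in o-HA, n-HA and untreated cells. The red tick, Actb ILMN_1377923, stands at 1.18, 2.87 and 0.72, at the far right of each set of ticks.

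Actg1, the second cytoplasmic actin, was read by a single probe, ILMN_2674763, detected on all 6 arrays. Its log2 intensities were 4.99 and 5.65 in o-HA cells and 5.96 and 5.77 in n-HA cells, against 5.56 and 5.57 in untreated cells. The o-HA arrays lay on either side of the untreated arrays, and the n-HA arrays were slightly above them. With o-HA its log2 fold change was -0.24 (SE 0.28) and with n-HA 0.30 (SE 0.28, limma adjusted p = 0.529), and the n-HA value was -0.40 without normalization between arrays. The gap of 0.66 between the o-HA arrays was larger than that of 98.5% of tested probes.

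Tpm1, which gives the main tropomyosin of the heart, was read by probe ILMN_3007072 on all 6 arrays. Its log2 intensities were 9.80 and 9.76 in o-HA cells and 8.31 and 9.56 in n-HA cells, against 9.59 and 9.67 in untreated cells. The o-HA arrays were just above the untreated arrays (log2 fold change 0.15, SE 0.41) and the n-HA arrays below them (-0.70, SE 0.41, limma adjusted p = 0.337). The n-HA value rested mainly on replicate 1, since replicate 2 differed from the untreated mean by -0.07. Before normalization both n-HA arrays were dim, with bead intensities of 288.4 and 445.5, against 1098 and 860.6 in untreated cells. Unnormalized values gave -1.57 (limma adjusted p = 0.0165), in a fit in which the median of all tested probes was itself -0.35.

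Tpm2, the tropomyosin named beta, had 1 tested probe of 3, ILMN_2787172. Its log2 intensities were 5.24 and 4.97 in o-HA cells and 4.41 and 4.45 in n-HA cells, where it was not detected, against 5.38 and 5.24 in untreated cells. All 4 treated arrays were below both untreated arrays. The log2 fold change was -0.21 (SE 0.22) for o-HA. For n-HA it was -0.88 (SE 0.22, limma adjusted p = 0.167), the lowest adjusted p among the 13 probes, which as a bound is at least 1.38-fold lower. The bound sets the untreated mean against, on each n-HA array, the dimmest detected signal or the probe's own signal, whichever is higher. The other bounds are made in the same way for whichever group did not detect the probe. It was at least 1.39-fold lower without n-HA replicate 1 (limma adjusted p = 0.015) and at least 1.44-fold lower without n-HA replicate 2 (limma adjusted p = 0.00197). Both n-HA values sit at background, so their closeness says nothing about how steady the level is.

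Counted over the family, o-HA moved no probe past the threshold of 0.05 on the adjusted p (0 of 13 with limma, against 0% of the 6194 tested probes). At an unadjusted p under 0.05, 1 of the 13 passed, the Acta2 probe ILMN_2710354, where 1.26% of all tested probes did. Of the 13 probes 10 were lower in o-HA cells than in untreated cells and 3 higher, against 49.7% lower among all tested probes. The median log2 fold change of the 13 was -0.21, and that of all tested probes 0.00. The o-HA arrays were wholly below the untreated arrays for 6 probes, 3 of Acta2 and 1 each of Actb, Actc1 and Tpm2 (22% of all tested probes), and wholly above for Tpm1 (21.7%). Probes of 1 gene are not independent, and 4 of the 10 lower probes belong to Acta2.

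With n-HA, again 0 of 13 probes passed on the adjusted p with limma, against 0% of all tested probes. At an unadjusted p under 0.05 there were 5 of 13, where 21.8% of all tested probes passed. These were Acta2 ILMN_2923445, higher, and Acta2 ILMN_2710353 and ILMN_2710354, Actb ILMN_2617433 and Tpm2 ILMN_2787172, lower. The n-HA arrays were wholly above the untreated arrays for 4 probes (23.8% of all tested probes) and wholly below for 5 (30.5%). In the fit 6 were higher and 7 lower (50.7% of all tested probes were lower), the median log2 fold change was -0.01, and that of all tested probes was also -0.01.

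**Figure D5:**
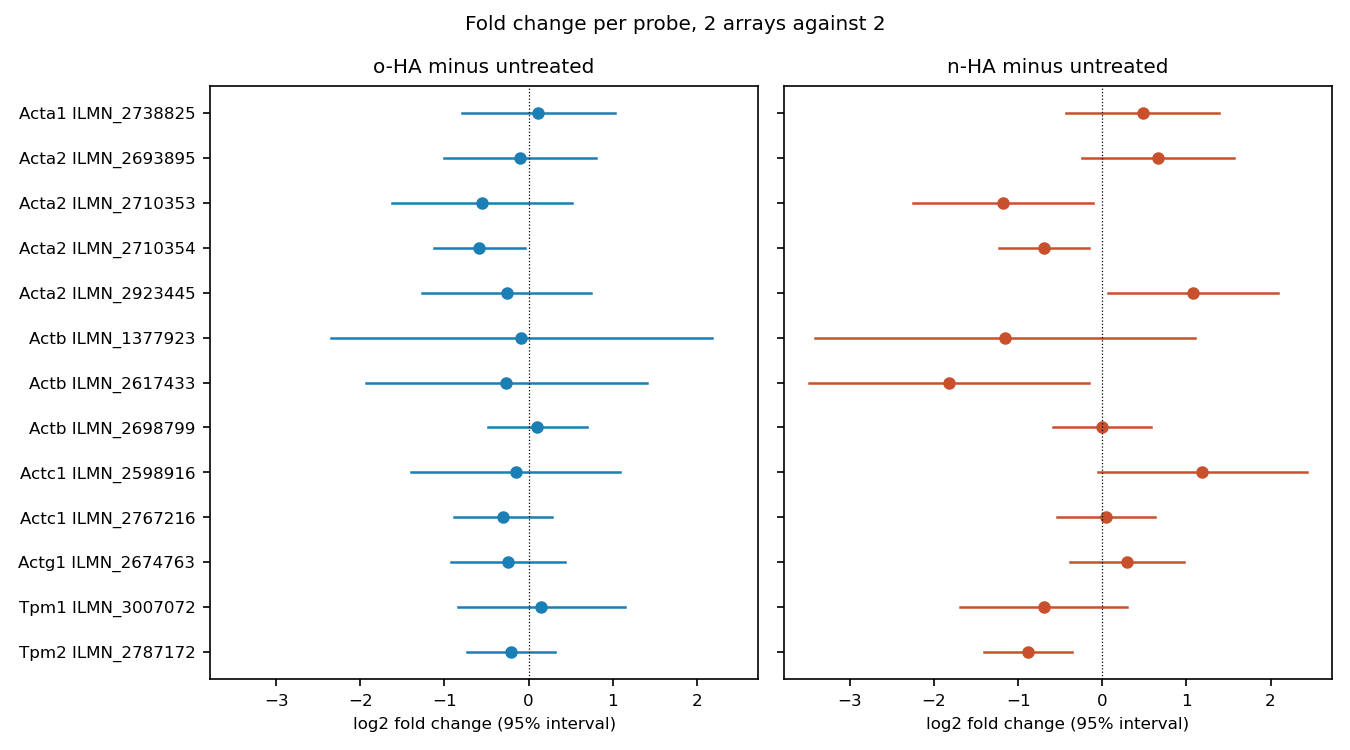
Log2 fold change (points) with its 95% interval (lines) from limma for the 13 tested probes, o-HA minus untreated on the left and n-HA minus untreated on the right, 2 arrays against 2. The o-HA values stay within -0.59 to 0.15, and the n-HA values run from -1.82 to 1.19.

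The n-HA calls depended on which n-HA array was kept. With 1 n-HA array left, its spread was assumed to be that of the other groups. Without replicate 1, 2 of the 13 probes passed, both lower, Actb ILMN_2617433 and Tpm2 ILMN_2787172, where 17.1% of all tested probes passed, 7.36% higher and 9.77% lower. Without replicate 2, which leaves the array that stood apart, 10 of 13 passed, where 54.1% of all tested probes did, 26.8% higher and 27.3% lower. Of these 10, 4 were higher (Acta1 1.10, Acta2 ILMN_2693895 1.15 and ILMN_2923445 1.71, Actc1 ILMN_2598916 2.01, as log2 fold changes). The other 6 were lower, Acta2 ILMN_2710353 (at least 3.47-fold) and ILMN_2710354 (log2 fold change -0.83), Actb ILMN_1377923 (-2.58) and ILMN_2617433 (-2.95), Tpm1 (-1.31) and Tpm2. Actb ILMN_2617433 and Tpm2 were the probes called in both of these fits. With either n-HA array left out, 0 of 13 probes passed for o-HA, where 0.407% and 0.403% of all tested probes did, and the 2 Acta2 probes ILMN_2710353 and ILMN_2710354 had an unadjusted p under 0.05, where 14.1% of all tested probes did.

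Genes that build, cap or anchor the actin filament were read from 5 lists, 1 probe per gene, and 0 of their tested genes passed on the adjusted p with either hyaluronan. Of 21 partners of the thin filament 7 were tested. With o-HA 2 were higher and 5 lower, with a median log2 fold change of -0.13 against 0.00 for all 4885 tested genes. Tnnc1, the troponin subunit that binds calcium, had log2 intensities of 10.09 and 10.13 in o-HA cells and 10.74 and 10.41 in n-HA cells, against 11.26 and 11.40 in untreated cells. All 4 treated arrays were below both untreated arrays. Its log2 fold change was -1.22 (SE 0.22, limma adjusted p = 1) for o-HA and -0.76 (SE 0.22, limma adjusted p = 0.176) for n-HA. Without n-HA replicate 1 the values were -1.21 for o-HA and -0.92 for n-HA. Without n-HA replicate 2 they were -1.22 for o-HA and -0.58 for n-HA. The o-HA arrays were also below the untreated arrays for Fhod3, a cardiac formin, which was detected on 0 o-HA arrays and 1 untreated array, and above them for Xirp1 (0.09, SE 0.22, detected on 2 o-HA arrays and 1 untreated array). With n-HA, 4 of the 7 were higher and 3 lower (median 0.11), among them Lmod1, a leiomodin that starts filaments, at 0.37 (SE 0.25, detected on 2 n-HA arrays and 1 untreated array) and Tnnt1, troponin T of slow muscle, at 0.37 (SE 0.28). Without n-HA replicate 1, 6 of these genes were tested, with a median log2 fold change of 0.0077 for n-HA. Without replicate 2, 7 were tested, with a median of 0.32. Tmod1, a tropomodulin that caps the slow-growing end of the filament, is named after its values were seen. It had opposite signs in these 2 fits, at -1.06 without replicate 1 and 0.80 without replicate 2.

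Assembly and turnover of filaments was covered by 19 tested genes of 47. With o-HA 8 were higher and 11 lower, with a median log2 fold change of -0.08. With n-HA there were 6 higher and 13 lower, at a median of -0.65 against 0.02 for all tested genes, and 6 had an unadjusted p under 0.05, all lower, where 21.8% of all tested probes had. Daam1, a formin that elongates filaments, had log2 intensities of 7.86 and 8.02 in o-HA cells and 5.71 and 7.41 in n-HA cells, against 8.19 and 8.29 in untreated cells. Its n-HA arrays lay below all others, with a log2 fold change of -1.68 (SE 0.53, limma adjusted p = 0.178). Cttn, cortactin of branched networks, was detected on 0 n-HA arrays and was at least 1.17-fold lower with n-HA (limma adjusted p = 0.176), whereas Arpc5, a subunit of the Arp2/3 complex, stood at 0.47 (SE 0.22) and Limk2, a kinase that switches off cofilin, at 0.72 (SE 0.39). With o-HA the genes named were Tmsb10, which binds actin monomers (0.46, SE 0.31), Arpc4 (0.37, SE 0.23), and, detected on 0 o-HA arrays, Vasp (at least 1.22-fold lower) and the profilin Pfn2 (at least 1.15-fold lower). Without n-HA replicate 1, 4 genes of this list passed for n-HA, Daam1 (-0.82), Cttn (at least 1.17-fold) and Arpc1a (-0.79) lower and Ssh3 (0.83) higher, where 17.1% of all tested probes passed. Arpc1a and Ssh3 are named after their values were seen. Without replicate 2 there were 12, where 54.1% of all tested probes passed.

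Crosslinkers and anchors of actin were covered by 16 tested genes of 33. With o-HA 9 were higher and 7 lower (median 0.06), and with n-HA 6 were higher and 10 lower (median -0.22), 4 of each direction at an unadjusted p under 0.05, where 21.8% of all tested probes had one. Svil, supervillin of the membrane cortex, had log2 intensities of 6.51 and 5.82 in o-HA cells and 4.31 and 4.93 in n-HA cells, against 6.94 and 6.73 in untreated cells. It was not detected on n-HA replicate 1. Its log2 fold change was -0.67 (SE 0.34) for o-HA and -2.21 (SE 0.34, limma adjusted p = 0.138) for n-HA, with 1 n-HA array at background. On n-HA replicate 2, which detected it, the value was -1.96 (limma adjusted p = 0.00112) with replicate 1 left out. Sptbn1, the beta-spectrin that ties actin to membranes, was at -2.72 (SE 0.79) with n-HA and at -1.38 (limma adjusted p = 0.0022) without replicate 1. Above the untreated arrays with n-HA were Anln, the anillin of the dividing cell, which was detected on 0 untreated arrays and was at least 1.63-fold higher, and Actn1, an alpha-actinin (0.94, SE 0.30). With o-HA, Coro1b was at 0.44 (SE 0.33), Actn3, detected on 0 untreated arrays, at least 1.07-fold higher and the smooth muscle gene Tagln at -0.54 (SE 0.49). For n-HA 4 genes of this list passed without replicate 1, Svil, Sptbn1, Anln (at least 1.55-fold higher) and Coro1a (not detected with n-HA, at least 1.36-fold lower, named after its value was seen), where 17.1% of all tested probes passed. Without replicate 2 there were 13, where 54.1% passed.

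SRF and its partners gave few measured values. Srf had 1 tested probe, ILMN_2988299, detected on 3 arrays, with bead intensities of 68.44 and 69.81 in o-HA cells and 70.16 and 74.63 in n-HA cells, against 73.29 and 71.30 in untreated cells. Myocd, which encodes the myocardin of cardiac and smooth muscle, was detected on all 6 arrays by probe ILMN_3151642, with 355.8 and 440.9 in o-HA cells and 497.8 and 230.9 in n-HA cells, against 571.2 and 317.8 in untreated cells. For Srf the o-HA arrays were below and the n-HA arrays overlapped the untreated arrays, though Srf was detected on 0 o-HA arrays. For this Myocd probe all groups overlapped. A second tested Myocd probe, ILMN_3072880, had 82.87 and 93.88 in o-HA cells and 61.66 and 64.27 in n-HA cells, where it was not detected, against 109.6 and 80.77 in untreated cells. It was at least 1.47-fold lower with n-HA (limma adjusted p = 0.170). In the same fit of normalized values the first probe went the other way, at a log2 fold change of 0.52 (SE 0.30). The intensities of the first probe before normalization, given above, were lower on average with n-HA. The probes of Mrtfa and Mrtfb, the family members that sense unpolymerised actin, were detected on 0 arrays. Of 10 genes of this list 4 were tested, all 4 lower with o-HA (median log2 fold change -0.19) and 3 higher with n-HA (median 0.28). Elk3, a further partner of SRF, was detected on 0 o-HA arrays and 1 untreated array. Without n-HA replicate 2, Myocd ILMN_3151642 passed for n-HA as higher (0.85, limma adjusted p = 0.0065) and ILMN_3072880 as lower (at least 1.54-fold, limma adjusted p = 0.00124). Without n-HA replicate 1 the second probe passed, also lower (at least 1.49-fold, limma adjusted p = 0.0182).

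The chaperonin and prefoldin that fold new actin were covered by 5 tested genes of 15. With o-HA 2 were higher and 3 lower (median log2 fold change -0.01), and with n-HA 2 were higher and 3 lower (median -0.46). Pfdn2, a prefoldin subunit, had log2 intensities of 8.31 and 8.63 in o-HA cells and 7.75 and 7.83 in n-HA cells, against 8.51 and 8.45 in untreated cells. Its n-HA arrays were below all others (log2 fold change -0.69, SE 0.22, limma adjusted p = 0.179). Cct6a, a chaperonin subunit, was at -0.96 (SE 0.42) with n-HA. With o-HA the prefoldin gene Pfdn4 was at 0.26 (SE 0.41) and the chaperonin gene Tcp1, detected on 0 o-HA arrays, at least 1.06-fold lower. For n-HA 1 gene of this list passed without replicate 1, Pfdn4 (0.87, higher), where 17.1% of all tested probes did. Without replicate 2 there were 3, Pfdn2 (-0.73), Cct6a (-1.54) and Tcp1 (not detected with n-HA), all lower, where 54.1% of all tested probes passed.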

How the data were processed

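Total RNA was labelled with the Illumina TotalPrep kit and read on 6 MouseRef-8 arrays of 1 chip. The authors deposited unnormalized bead intensity values, made with BeadStudio 3.3 as the submitters' processing notes name it. The deposited table also holds a detection p-value against negative control beads, the count of beads behind each probe and the standard error over them. Intensity values that the authors normalized by cubic spline were deposited separately.

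Intensities were background-corrected with neqc of limma 3.58.1 in R 4.3.3 (offset 16, with the negative controls read back from detection p-values), quantile-normalized and put on the log2 scale. Probes detected at p under 0.05 on at least 2 arrays were tested (6194 probes, 4885 genes). A mean per group was fitted to all 6 arrays in limma (lmFit, eBayes), with 3 degrees of freedom from the residuals and 3.145 from the prior. Tests were two-sided, with Benjamini-Hochberg adjustment over all tested probes. Tested actin and tropomyosin probes had 24 to 83 beads, with standard errors of 2.65 to 9.37% of the intensity. The number of arrays limits the precision.

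The genes, lists and tests were chosen with earlier results of these data known. Every probe of the family was shown. From each list, up to 2 genes of smallest p per comparison and direction were named among those whose groups did not overlap, with Srf and the myocardin family. The limma fit was tested on simulated data with known changes. Background correction, normalization and the detection filter were not part of that test, and no simulated array stood apart from the others. Promoter windows came from RefSeq and were matched by symbol.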

Additional observations from a re-analysis of the deposited data

How the results depend on the processing

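The limits are those of 2 arrays per group and of an estimate of the spread shared by all groups. Changes smaller than about the 95% intervals given could not be told from 0, and 9 of the 22 probes were not above background. The o-HA intervals also carry the spread of the n-HA arrays. With all arrays, the SE of the o-HA fold change was 0.51 for Actc1 ILMN_2598916 and 0.41 for Tpm1. It was 0.18 and 0.17 without n-HA replicate 1. For o-HA, 0 actin or tropomyosin probes passed under any alternative run. Without normalization between arrays, 1472 tested probes (all lower) and 5 of the 13 actin and tropomyosin probes passed for n-HA, with 2 thin filament, 8 assembly, 6 crosslinker and 2 chaperonin genes; Actc1 ILMN_2767216 turned to -0.64 and Actg1 to -0.40, and the median of the 13 was -0.64 beside -0.35 for all tested probes. The authors' normalized values turned Actb ILMN_2698799 to 0.12 for n-HA. With no filter on dim probes 12 probes passed for n-HA. With array quality weights (0.22 for each n-HA array, 2.13 for the others) 26 probes and 1 thin filament gene passed for o-HA, and 8 probes and 1 crosslinker gene for n-HA. The cause was not tested in any of these.

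Leaving out each array in turn gave 0 to 24 probes past the threshold for o-HA and 0 to 3221 for n-HA. Among the actin and tropomyosin probes it gave 0 to 0 for o-HA and 0 to 10 for n-HA. For the lists with n-HA it gave 0 to 5 thin filament, 0 to 12 assembly, 0 to 13 crosslinker, 0 to 1 SRF and 0 to 3 chaperonin genes, and with o-HA 0 to 1 thin filament genes. Counts above 0 came from leaving out an n-HA array. The log2 fold change with n-HA ran from -0.063 to 1.10 for Acta1, from -2.58 to 0.28 for Actb ILMN_1377923, from -0.23 to 0.22 for Actb ILMN_2698799 and from -0.14 to 0.23 for Actc1 ILMN_2767216. With o-HA it ran from -0.29 to 0.076 for Acta2 ILMN_2693895, from -0.68 to 0.52 for Actb ILMN_1377923 and from -0.54 to 0.081 for Actg1. The other values kept their direction, except that Actb ILMN_2698799 came to 0 with o-HA at its lowest.

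The replicate numbers did not pair the arrays, since same-numbered deviations correlated at -0.04 (o-HA and n-HA), -0.11 (o-HA and untreated) and 0.15 (n-HA and untreated). With the replicate number as a block, 0 probes passed for o-HA and 0 for n-HA (49 and 1322 at an unadjusted p under 0.05), and it changed no call.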

Other observations

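For 5 of these genes the brightest probe was detected on all 6 arrays, and the 2545 genes with such a probe were ranked by Pearson's r of their log2 values with it over the 6 arrays, as a description. The nearest to Acta2 was Fsd2 (r = 0.993), to Actc1 Zfp346 (0.995) and to Tpm1 Elp5 (0.996). Such closeness was common for these 3, with 349, 473 and 470 genes at r over 0.9, and n-HA replicate 1 lies far from the other arrays for each of them. Without that array the 3 values of r were 0.921, 0.940 and 0.922. For Actb (ILMN_2698799) the nearest was Zadh2 (r = 0.930, and 0.958 without n-HA replicate 1), with 10 genes over 0.9. For Actg1 it was Pkp2, the plakophilin of the cardiac desmosome (r = 0.957, and 0.942 without that array), with 9 genes over 0.9. The points share 1 chip, and the 2 arrays of a group share their treatment.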
